A study of Rattus norvegicus with 32 samples.

Results

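BUF/N and WF are inbred rat strains, and the comparison described here sets the normal mammary gland of BUF/N against that of WF. It used 10 arrays of 32, namely the 5 titled as BUF/N samples and the 5 titled as WF samples, which were chosen by their titles alone. The study hybridised mammary gland RNA of the strains BUF/N, WF, Cop, F344 and ACI, and of a Cop by F344 hybrid called F1, to an Affymetrix rat array with 8799 probe sets, with 5 single-sample arrays for each of the 6 groups and 2 further arrays labelled as pools. The BUF/N and WF rats are described only by strain and by normal mammary gland as the tissue. The labels give no treatment, allele, age, sex, stage of the oestrous cycle or batch, and whether the 5 samples of a strain came from separate animals is not stated. The p-values and standard errors below rest on the spread between samples, pooled over all 6 groups and not taken from BUF/N and WF alone. That spread may therefore be partly technical.

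As background from outside these data, BUF/N and WF both count as strains that readily develop mammary cancer after a chemical carcinogen, in contrast to the resistant Cop strain. Inbred strains are fixed at different alleles of many genes, and a difference between them on an array can be a difference in RNA level or a difference in how well the RNA of each allele matches the probes. The normal rat mammary gland holds ducts of luminal and myoepithelial cells in a fat pad, with vessels, nerves, a lymph node, mast cells and nearby muscle. In whole tissue, fewer cells of a type and less RNA per cell cannot be told apart.

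The median signal per array lay between 80.1 and 83.7 in BUF/N and between 78.4 and 86.8 in WF. The luminal markers Krt8, Krt18, Krt19, Cldn3, Cldn7 and Epcam were bright in both strains, with summed signals of 6613.9 to 8152.1 in BUF/N and 6181 to 8141.5 in WF. Correlations of log2 signals between arrays of a strain ran from 0.933 to 0.967 in BUF/N and from 0.886 to 0.965 in WF. WF replicate 1 stood apart, with the lowest of these correlations. The 3'-to-5' ratio of the GAPDH control probe sets was 0.974 to 1.32 in BUF/N and reached its highest value, 1.35, in WF replicate 1. The same ratio of the actin control probe sets went the other way. It was 1.01 in WF replicate 1, the lowest of the WF arrays, and 1.06 to 1.25 in the rest of them. The median SD of log2 signals was 0.257 in BUF/N and 0.305 in WF, and no 2 of the 10 arrays held identical values.

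A small share of the probe sets passed the threshold between BUF/N and WF, and some of these differed by large amounts. The number that passed depended on the fit, so it does not give the number of genes that differ. Single probe sets of the antigen presentation gene RT1-Bb and of the detoxification gene Gstt2 were far higher in BUF/N, while the other probe sets of these genes did not pass, and both probe sets of the signalling gene Pik3r1 were far higher. The secretory granule gene Gp2, the albumin gene Alb and the membrane protein gene Tspan8 were far lower. Of 5039 probe sets tested, 112 (2.22%) passed an adjusted p of 0.05 by limma with Benjamini-Hochberg adjustment, 46 higher in BUF/N (0.913% of those tested) and 66 lower (1.31%). These are called higher or lower below. Without adjustment, 577 had a p under 0.05. The median log2 change over all tested probe sets, always BUF/N minus WF, was 0.0018, and the median of its absolute size was 0.17. Of the called probe sets, 68 changed beyond 2-fold (26 higher and 42 lower, where 2.5% of all tested probe sets did so whatever their p) and 14 beyond 4-fold (6 higher and 8 lower). The deposited signals of the 5 BUF/N and 5 WF arrays did not overlap for 90 of the called probe sets, and for 3.85% of all those tested. Without WF replicate 1 there were 178 calls, 55 higher and 123 lower.

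**Figure D1:**
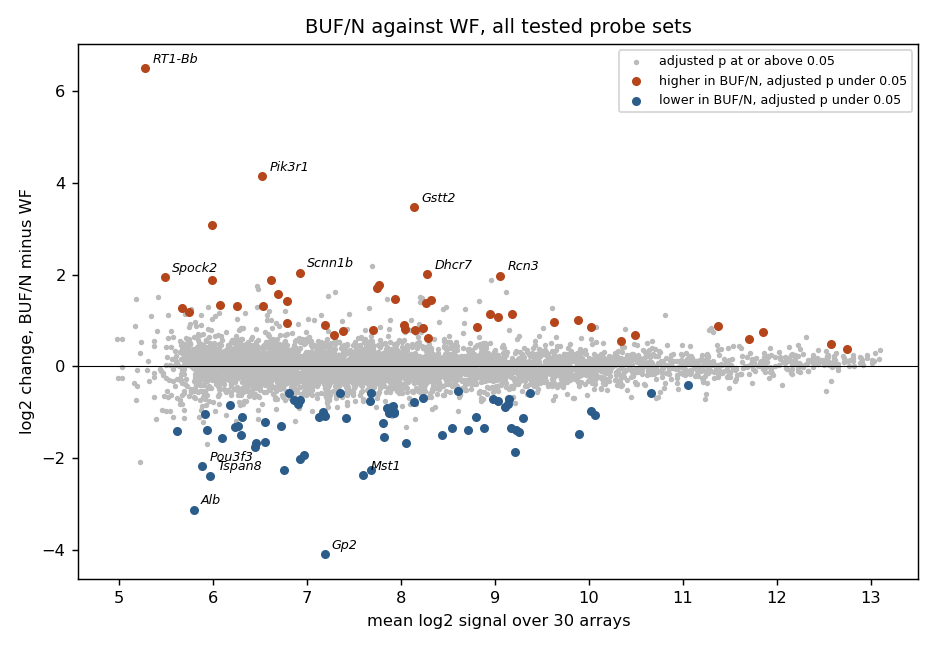
Log2 change, BUF/N minus WF, against the mean log2 signal over 30 arrays for each of the 5039 tested probe sets. Coloured points are the 46 called higher in BUF/N and the 66 called lower, grey points the rest, and the 12 genes of largest change named by the rule for named genes carry their symbols. RT1-Bb lies highest at 6.50 and Gp2 lowest at -4.10, while most points lie near 0.

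The 96 called probe sets with 1 gene symbol stood for 81 genes, 35 higher and 46 lower, and 16 others had no single symbol. For 57 called probe sets the array held another tested probe set of the same gene. In 27 of these cases another one was called in the same direction, in 30 no other was called, and in none was another called in the opposite direction. The genes with at least 2 probe sets called the same way were Pik3r1, Dhcr7, Prim1, Vat1, Ccnd1, Cbr1, Alb, Star, Slc1a3, Agtr1a, Crot and Hsd17b12, of which the last 3 fall outside the rule for named genes and were picked out after their values were seen. Some of these pairs were designed on the same source sequence, so they are not independent measurements.

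The class II genes of the RT1 complex, the rat major histocompatibility complex, encode the alpha and beta chains that present peptides to helper T cells. A probe set of RT1-Bb, which encodes the beta chain of the RT1.B molecule, had signals of 2329.6, 1078.3, 1174, 2474.7 and 1710.3 on the BUF/N arrays, against 2.8, 0.8, 2.1, 1.1 and 1.4 on the WF arrays. All 5 WF signals lay below the floor of 18.3 that was put under low signals, and the strains were far apart. The signal was at least 90.5-fold higher in BUF/N (log2 change 6.50 with a standard error of 0.22, adjusted p = 5.52e-20). The means of the same probe set in Cop, F344, ACI and F1 were between 1.16 and 1.62, so among the 6 groups it was bright in BUF/N alone. It was bright enough to be tested only because of its BUF/N arrays. The floor left no spread in the other groups, so the pooled standard error and the p-value do not measure the precision of this change.

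The other 3 tested probe sets of RT1-Bb did not show this gap between BUF/N and WF. The brightest of them averaged 1363 ± 153 in BUF/N and 1012 ± 303 in WF (SD, n = 5 each, as for every mean below), with a log2 change of 0.48 and an adjusted p of 0.45, and the remaining ones had changes of 0.35 and -0.56 without passing. These remaining ones set BUF/N and WF apart from the other groups. The one with -0.56 averaged 422 in BUF/N and 664 in WF, but 1.32 to 5.5 in Cop, F344, ACI and F1. The one with 0.35 averaged 62.1 in BUF/N and 50.7 in WF, but 958 to 1168 in Cop, F344, ACI and F1. The cause of these differences between probe sets was not tested. RT1-Ba, which encodes the partner alpha chain, was lower in BUF/N at its brightest probe set. Its signals were 343.4, 431.9, 485.6, 471.1 and 507.1 in BUF/N, against 889.9, 1143.5, 1127.7, 1692.1 and 1411.5 in WF, with no overlap. The log2 change was -1.46 (SE 0.24, adjusted p = 0.00024), while the other 2 probe sets of RT1-Ba had changes of 0.30 and 0.18 and did not pass.

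Of the 8 MHC class II genes tested by their brightest probe set, RT1-Ba was called lower, none was called higher, and the other 7 had changes above 0 that did not pass, from 0.05 for RT1-DOa to 0.61 for RT1-Db1. The list's median change was 0.37, beside 0.0061 over the 3053 genes tested by 1 probe set each, of which 0.884% were called higher and 1.21% lower. RT1-Db1, the beta chain gene of RT1.D, averaged 956 ± 325 in BUF/N and 629 ± 224 in WF (adjusted p = 0.38). Cd74, the invariant chain that guides class II molecules through the cell, averaged 3052 ± 724 in BUF/N and 2369 ± 509 in WF (adjusted p = 0.63), so neither difference passed. Of 12 listed genes of MHC class I and antigen processing, none was called. The one nearest to the threshold was Tap2, a subunit of the transporter that carries peptides to class I molecules, with 148 ± 39.5 in BUF/N and 233 ± 46.5 in WF (log2 change -0.68, adjusted p = 0.067). Tap2 passed without BUF/N replicate 3 (-0.79, adjusted p = 0.042) and without WF replicate 1 (-0.74, adjusted p = 0.041). RT1-A, a class I gene that is not among these 12, was called higher without overlap. It averaged 3692 ± 120 in BUF/N and 2470 ± 402 in WF (log2 change 0.59, limma adjusted p = 0.038). The call of RT1-A held in 1 of the 10 fits that each dropped 1 array. RT1-A lies outside the rule for named genes and was picked out after its values were seen.

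**Figure D2:**
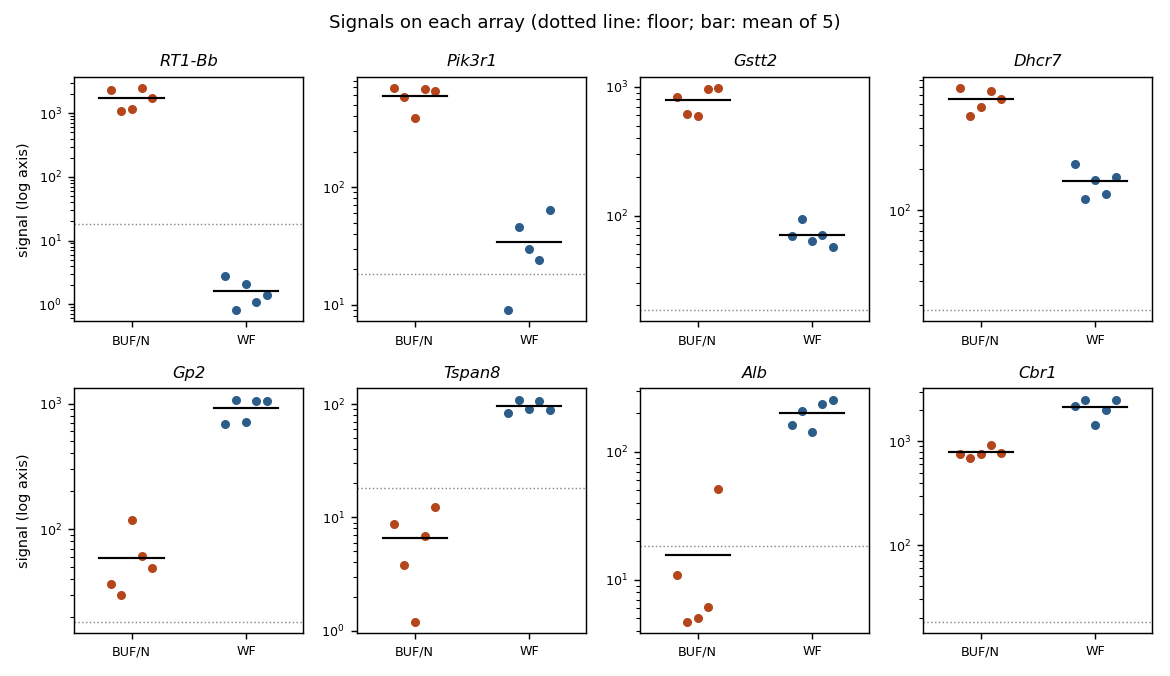
Deposited signal on each of the 5 BUF/N arrays (left in each panel) and the 5 WF arrays (right) for 8 genes named by the rule, on a log axis. Each point is 1 array, the bar is the mean of 5 and the dotted line is the floor of 18.3. RT1-Bb, Pik3r1, Gstt2 and Dhcr7 are higher in BUF/N and Gp2, Tspan8, Alb and Cbr1 lower, with no overlap in any panel.

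Glutathione transferases join reactive compounds to glutathione, and the theta class genes Gstt1 and Gstt2 lie side by side. Gstt2 had signals of 829.7, 617.1, 597, 970.9 and 977.1 in BUF/N, against 69.4, 94.3, 63.6, 70.9 and 57.3 in WF. The lowest BUF/N array was several times as bright as the highest WF array, and the log2 change was 3.48 (SE 0.18, 11.1-fold, adjusted p = 6.05e-15). A second probe set of Gstt2 had a change of -0.48 and did not pass. Gstt1 was also higher, with 240 ± 35.0 in BUF/N and 140 ± 20.6 in WF (log2 change 0.77, SE 0.17, adjusted p = 0.008), again without overlap.

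Gsta4, whose product clears the lipid peroxidation product hydroxynonenal, was lower at 190 ± 73.2 in BUF/N, against 427 ± 43.6 in WF (log2 change -1.24, SE 0.22, adjusted p = 0.00042). Its second probe set had a change of -0.72, overlapped and did not pass. Of 19 genes of glutathione transfer and metabolism, 2 were thus called higher, 1 lower and 16 not, with 10 changes above 0, 9 below and a median of 0.06. Among all 3053 genes tested by 1 probe set each, 0.884% were called higher and 1.21% lower. The mu and pi class genes Gstm1, Gstm2 and Gstp1 had changes of 0.06, 0.11 and -0.04.

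Cbr1, a carbonyl reductase that acts on quinones and prostaglandins, had signals of 754.2, 695.2, 754.4, 933.7 and 779.8 in BUF/N, against 2204, 2483.1, 1438.4, 2010 and 2532.8 in WF. Both of its probe sets were called lower, with log2 changes of -1.42 (SE 0.31, adjusted p = 0.0073) and -1.10. Fmo1, a flavin monooxygenase, averaged 310 ± 101 in BUF/N and 816 ± 312 in WF (log2 change -1.38, SE 0.33, adjusted p = 0.018). The groups did not overlap for Fmo1 or for the first probe set of Cbr1, but they did for its second, which was called in 2 of the 10 fits that each dropped 1 array. Fmo1 did not pass without BUF/N replicate 3 (adjusted p = 0.087), WF replicate 2 (0.054), WF replicate 4 (0.056) or WF replicate 5 (0.078).

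Of 26 genes of xenobiotic oxidation and conjugation, Cbr1 and Fmo1 were called lower and none higher, with 10 changes above 0, 16 below and a median of -0.11. The shares over all genes were 1.21% lower and 0.884% higher. Cyp2e1, an oxidase of small solvents, was called at 1 of its 3 tested probe sets, with 93.3 ± 59.4 in BUF/N and 378 ± 314 in WF (log2 change -2.02, adjusted p = 0.036), and the strains overlapped. This call of Cyp2e1 was made in 14 of 23 alternative fits and in 3 of the 10 that each dropped 1 array. Its other probe sets had changes of -0.89 and -1.07 and did not pass. Cyp2e1 lies outside the rule for named genes and was picked out after its values were seen. Dpyd, which starts the breakdown of uracil and thymine, was higher with 165 ± 29.4 in BUF/N and 58.0 ± 21.9 in WF (log2 change 1.58, SE 0.23, adjusted p = 4.36e-05), and its second probe set had a change of 0.70 that did not pass. Ephx2, an epoxide hydrolase of fatty acid epoxides, showed no difference that passed, with 429 ± 118 in BUF/N and 447 ± 123 in WF (adjusted p = 0.98).

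Pik3r1 encodes the regulatory subunit of class I phosphoinositide 3-kinase that couples receptors to the kinase. Its signals were 688, 584.6, 387, 672.9 and 652.4 in BUF/N, against 9, 46.2, 29.9, 24 and 63.3 in WF. The groups lay well apart, 1 WF array was below the floor, and the log2 change was 4.15 (SE 0.31, 17.8-fold, adjusted p = 6.07e-11). A second probe set of Pik3r1 was called in the same direction with a change of 3.08.

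Ccnd1, the cyclin that drives cells through early cell cycle entry, had signals of 927.9, 1013.9, 1565, 849.4 and 890.4 in BUF/N, against 366.7, 719.1, 417.8, 589.3 and 600.8 in WF. Every BUF/N array was above every WF array (log2 change 0.97, SE 0.24, adjusted p = 0.023). Of its other 3 probe sets, those with changes of 0.85 and 0.90 were called as well and the one with 0.04 was not. The brightest probe set of Ccnd1 missed the threshold without BUF/N replicate 2 (adjusted p = 0.054), BUF/N replicate 3 (0.106), WF replicate 1 (0.057) or WF replicate 3 (0.071). Of 14 cell cycle genes Ccnd1 alone was called, 12 changes were above 0 and the median was 0.27. The proliferation genes Pcna, Top2a and Cdk1 had changes of 0.29, 0.32 and 0.25, with adjusted p-values of 0.80 to 0.92.

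Mst1, the macrophage-stimulating ligand of the receptor Ron, had signals of 30.6, 13.5, 34, 81.6 and 109.2 in BUF/N, against 239.3, 203.8, 238.1, 251.8 and 218.1 in WF (log2 change -2.38, SE 0.28, adjusted p = 1.03e-06). Ccn1, a matricellular growth factor-inducible gene, averaged 23.6 ± 12.8 in BUF/N and 88.7 ± 22.4 in WF (log2 change -1.76, adjusted p = 0.00033). With the floor at the 40th percentile of all values, Ccn1 did not pass (-0.86, adjusted p = 0.11). It was the only one of 17 immediate early genes to be called, and the list's median was -0.07. Paqr3, a Golgi protein that holds back Raf kinase, was lower at 99.3 ± 18.8 in BUF/N, against 320 ± 80.0 in WF (log2 change -1.67). Plpp1, a phosphatase of signalling lipids, averaged 101 ± 21.5 in BUF/N and 296 ± 71.0 in WF at the called probe set (log2 change -1.54), while its other 2 probe sets had changes of -0.48 and 0.02 and did not pass. Agtr1a, the angiotensin II receptor, was called lower at 3 of its 4 probe sets, with changes of -1.08, -0.75 and -0.68, which held in 7, 3 and 8 of the 10 fits that each dropped 1 array.

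Dhcr7, the last enzyme of cholesterol synthesis, had signals of 785.7, 494.1, 568, 751.8 and 649.7 in BUF/N, against 218.8, 121.1, 167.4, 130.9 and 176.1 in WF. The groups did not overlap, and both probe sets were called higher, with log2 changes of 2.01 (SE 0.21, adjusted p = 1.29e-07) and 1.44 (SE 0.24, adjusted p = 0.00018). Of 10 sterol synthesis genes Dhcr7 alone was called. 7 of them, among them Insig1 (-0.42), Idi1 (-0.41) and Cyp51 (-0.40), had changes below 0 that did not pass, and the list's median was -0.28.

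Aqp7, the glycerol channel of fat cells, averaged 1110 ± 185 in BUF/N and 557 ± 163 in WF (log2 change 1.02, SE 0.17, adjusted p = 0.00016) with no overlap. It was the only one of 15 white adipocyte genes to be called by its brightest probe set. The list's median was -0.15, the perilipin gene Plin1 had 178 ± 67.1 in BUF/N and 199 ± 53.8 in WF (adjusted p = 0.82), and the summed signal of the 4 fat cell markers ran from 5949.5 to 8559.4 in BUF/N and from 7034.3 to 9421 in WF. Etfdh, which passes electrons from fat oxidation to ubiquinone, had 68.2 ± 10.1 in BUF/N, against signals between 1 and 2.2 in WF, all at the floor. It was at least 3.69-fold higher at that probe set (adjusted p = 0.0051), whereas its other 2 probe sets had changes of 0.03 and -0.20. With the floor at the 40th percentile of all values, Etfdh had a change of 0.51 and did not pass (adjusted p = 0.49). None of 16 listed genes of mitochondrial beta oxidation and none of 24 listed genes of the respiratory chain and ATP synthase was called, with medians of -0.11 and -0.0017. Ndufb6, a respiratory chain subunit gene outside that list, was called higher at 1 probe set without overlap. It averaged 890 ± 217 in BUF/N and 402 ± 85.5 in WF (log2 change 1.14, limma adjusted p = 0.032). That call held in 4 of the 10 fits that each dropped 1 array, and the other probe set of Ndufb6 had a change of 0.08.

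Star, which moves cholesterol into mitochondria for steroid synthesis, was lower at both of its probe sets. Its signals were 49.4, 15.9, 10.8, 67.5 and 34.1 in BUF/N, against 90.9, 77.9, 116.8, 77.8 and 75.6 in WF (log2 changes -1.40, SE 0.35, adjusted p = 0.023, and -1.10). The groups did not overlap, but the call of Star was lost without BUF/N replicate 2 (adjusted p = 0.097), BUF/N replicate 3 (0.10) or WF replicate 3 (0.071). Hsd17b12, an enzyme of very long chain fatty acid synthesis, was called lower at both probe sets with changes of -1.01 and -0.88, which held in 5 and 3 of the 10 fits that each dropped 1 array. Crot, the carnitine octanoyltransferase of peroxisomes, was called lower at both of its own with changes of -1.13 and -0.82, which held in 10 and 3 of these fits.

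The epithelial genes split into a pair that were called and many that were not. Tspan8, a tetraspanin of the cell surface of glandular epithelia, had signals of 8.7, 3.8, 1.2, 6.8 and 12.3 in BUF/N, all below the floor, against 83.5, 109.6, 91, 107.2 and 88.3 in WF. It was at least 5.21-fold lower in BUF/N (log2 change -2.38, SE 0.24, adjusted p = 3.70e-08), and it averaged between 57.4 and 112 in the other 4 groups. Cd24, a surface protein of luminal cells, was higher at 1346 ± 267 in BUF/N, against 748 ± 165 in WF (log2 change 0.85, SE 0.17, adjusted p = 0.0033), but its other 2 probe sets had changes of 0.65 and 0.37, did not pass and overlapped between the strains. Of 10 luminal genes these 2 were called, 1 in each direction, and the median change was 0.09. The shares over all genes were 0.884% higher and 1.21% lower. The keratin genes Krt8 and Krt18 had changes of 0.07 and -0.03, and the keratin gene Krt14 of basal cells had 1076 ± 365 in BUF/N and 1342 ± 356 in WF (adjusted p = 0.82).

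None of 13 basal and smooth muscle markers was called, although 11 of them had changes below 0 and the median was -0.30. Acta2, smooth muscle actin, averaged 2861 ± 337 in BUF/N and 3177 ± 256 in WF (adjusted p = 0.83).

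Among genes of glandular secretion, Gp2 showed the widest gap of any gene with a symbol called lower. It encodes a glycoprotein of secretory granule membranes that is known from the pancreas. Its signals were 36.7, 29.9, 118, 61.1 and 49.3 in BUF/N, against 681.1, 1074.5, 712.9, 1049.2 and 1055.5 in WF. The groups were far apart, with a log2 change of -4.10 (SE 0.39, 17.1-fold lower in BUF/N, adjusted p = 2.20e-08). The other groups averaged from 60.6 in F344 to 374 in F1, all below WF.

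Foxq1, a forkhead transcription factor of epithelia, was higher with 132 ± 19.4 in BUF/N and 52.4 ± 10.1 in WF (log2 change 1.34, SE 0.29, adjusted p = 0.0051). Scnn1b, the beta subunit of the epithelial sodium channel, had signals of 620, 357.2, 350.2, 470.3 and 435.1 in BUF/N, against 285.4, 159.3, 281.6, 27 and 38.1 in WF. The WF arrays themselves spread widely, and the call (log2 change 2.05, SE 0.57, adjusted p = 0.049) lay at the threshold. Scnn1b passed in 6 of 23 alternative fits, among them 2 of the 10 that each dropped 1 array, and its adjusted p without WF replicate 4 was 0.23. The subunit genes Scnn1a and Scnn1g had changes of -0.03 and 0.73 and did not pass. Of the 7 genes of this list 2 were called higher, 1 lower and 4 not, with a median of 0.82. Over all genes the shares were 0.884% higher and 1.21% lower.

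The milk protein genes varied widely between the arrays of each strain, and none of them passed. Csn2, which encodes beta-casein, had signals of 3458.3, 4193.5, 4409, 502.7 and 1025.4 in BUF/N, against 178.4, 950, 3201.3, 375.8 and 242.9 in WF. The strains overlapped, since the brightest WF array lay above 2 of the BUF/N arrays, and the log2 change of 1.88 had a standard error of 0.97 (adjusted p = 0.48). Wap, the whey acidic protein gene, had a change of 1.63 (SE 0.71, adjusted p = 0.35). Lalba, which encodes alpha-lactalbumin, had a change of 0.84 (SE 0.35, adjusted p = 0.32), and without WF replicate 3 it passed with 1.23 (adjusted p = 0.029). All 9 milk protein genes tested had changes above 0 and none was called, with a median of 0.55. Lcn2, a lipocalin made by luminal cells, averaged 2742 ± 1244 in BUF/N and 2557 ± 1253 in WF (adjusted p = 0.96). These means lay far above those of 72.3 in F344 and 75.2 in ACI. The means of 1616 in Cop and 1694 in F1 were also high, so high Lcn2 was not particular to BUF/N and WF.

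Protease genes of mast cells were among those lower in BUF/N. Mast cells are tissue-resident immune cells whose granules hold proteases. Of 6 tested mast cell genes 3 were called lower, none higher, with a median change of -0.72. Over all 3053 genes tested by 1 probe set each, 1.21% were called lower and 0.884% higher. This list, like the others, was chosen with earlier results of these data known. The 3 called lower are the granule protease genes Cma1 (mast cell chymase), Cpa3 (mast cell carboxypeptidase A) and Tpsab1 (tryptase). Mcpt1l1, a further mast cell protease gene that is not on the list, was called lower at the dimmer of its 2 probe sets only. Each of these 4 genes had a probe set called lower. The 300 bases around their starts, from 250 before to 50 after, are given here from RefSeq on GRCr8. All are on the minus strand and written 5′ to 3′. They lie at chr2:104673188-104673487 for Cpa3, chr15:33390084-33390383 for Cma1, chr10:14867253-14867552 for Tpsab1 and chr15:33876846-33877145 for Mcpt1l1. Capitals mark the letters GATA and CANNTG on either strand (GATA read from the other strand is TATC), which are known as the core motifs of GATA factors and of basic helix-loop-helix factors.
Cpa3: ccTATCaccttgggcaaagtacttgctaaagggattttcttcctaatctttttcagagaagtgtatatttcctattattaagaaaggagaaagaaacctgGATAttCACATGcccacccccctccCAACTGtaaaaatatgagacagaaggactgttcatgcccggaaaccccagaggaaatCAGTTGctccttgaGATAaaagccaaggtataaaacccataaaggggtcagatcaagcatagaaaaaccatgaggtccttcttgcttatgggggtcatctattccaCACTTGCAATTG
Cma1: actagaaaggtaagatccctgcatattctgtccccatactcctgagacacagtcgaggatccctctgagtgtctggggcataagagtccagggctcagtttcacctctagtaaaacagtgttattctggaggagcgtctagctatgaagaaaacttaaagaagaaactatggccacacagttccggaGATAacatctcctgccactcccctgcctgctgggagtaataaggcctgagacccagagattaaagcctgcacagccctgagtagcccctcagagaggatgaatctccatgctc
Tpsab1: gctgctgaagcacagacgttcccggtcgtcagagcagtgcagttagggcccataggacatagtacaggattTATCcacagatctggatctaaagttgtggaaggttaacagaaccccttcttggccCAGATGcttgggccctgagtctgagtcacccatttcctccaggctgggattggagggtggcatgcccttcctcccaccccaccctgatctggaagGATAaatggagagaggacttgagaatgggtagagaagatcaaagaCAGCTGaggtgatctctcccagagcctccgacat
Mcpt1l1: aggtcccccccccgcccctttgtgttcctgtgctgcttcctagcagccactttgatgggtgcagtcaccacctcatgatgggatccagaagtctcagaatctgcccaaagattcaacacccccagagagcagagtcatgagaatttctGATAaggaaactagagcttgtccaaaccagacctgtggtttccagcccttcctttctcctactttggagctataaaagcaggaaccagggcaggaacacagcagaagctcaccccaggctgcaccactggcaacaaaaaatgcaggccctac
The Cpa3 window held 3 GATA and 5 CANNTG matches, that of Tpsab1 2 and 2, and those of Cma1 and Mcpt1l1 each 1 GATA and 0 CANNTG. No match of one motif overlapped one of the other. Of 33469 promoters of the same length in the RefSeq table, 60.5% held GATA, 72.1% CANNTG and 45.2% both, so the matches are common letters and describe these windows only.

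Cpa3 had signals of 255.7, 294.6, 199.8, 339.9 and 285.2 in BUF/N, against 335.7, 691.8, 677.3, 669.4 and 703.7 in WF. WF replicate 1 lay within the BUF/N range and the other WF arrays well above it, and the log2 change was -1.13 (SE 0.17, adjusted p = 5.85e-05). Cma1 had 656.7, 614.8, 456.3, 702.8 and 602.4 in BUF/N, against 1020.5, 1226.3, 1312.2, 1019.7 and 1338.5 in WF. These did not overlap, with a log2 change of -0.97 (SE 0.14, adjusted p = 2.29e-05). Tpsab1 had 110.3, 118.1, 87.2, 147.8 and 123.4 in BUF/N, against 171.4, 308.8, 287.1, 224.4 and 282.8 in WF, also without overlap (log2 change -1.11, SE 0.19, adjusted p = 0.00042). BUF/N replicate 3 was the lowest array for all 3 genes.

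At its called probe set Mcpt1l1 averaged 240 ± 66.5 in BUF/N and 872 ± 225 in WF (log2 change -1.86, SE 0.22, adjusted p = 1.03e-06). Its other probe set was brighter, with means of 2097 in BUF/N and 2507 in WF. There the change was -0.26 and did not pass (adjusted p = 0.46), although the signals did not overlap. By its brightest probe set Mcpt1l1 was thus not called. Among the list members that were not called, Tpsb2, a second tryptase gene, had a change of -0.47, Kit, the stem cell factor receptor of mast cells, -0.19, and Milr1, a mast cell surface receptor, 0.01. Adjusted p-values of these 3 lay at 0.48 or above. The summed signal of the 3 mast cell markers found of 4 listed (Cpa3, Cma1 and Tpsab1) ran from 743.3 to 1190.5 in BUF/N and from 1527.6 to 2325 in WF. Cpa3 averaged 806 in Cop, 753 in F344, 854 in ACI and 764 in F1, so BUF/N was the low group for this gene, while for Tpsab1 WF was the high group, with 88.5 to 170 in the other 4.

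**Figure D3:**
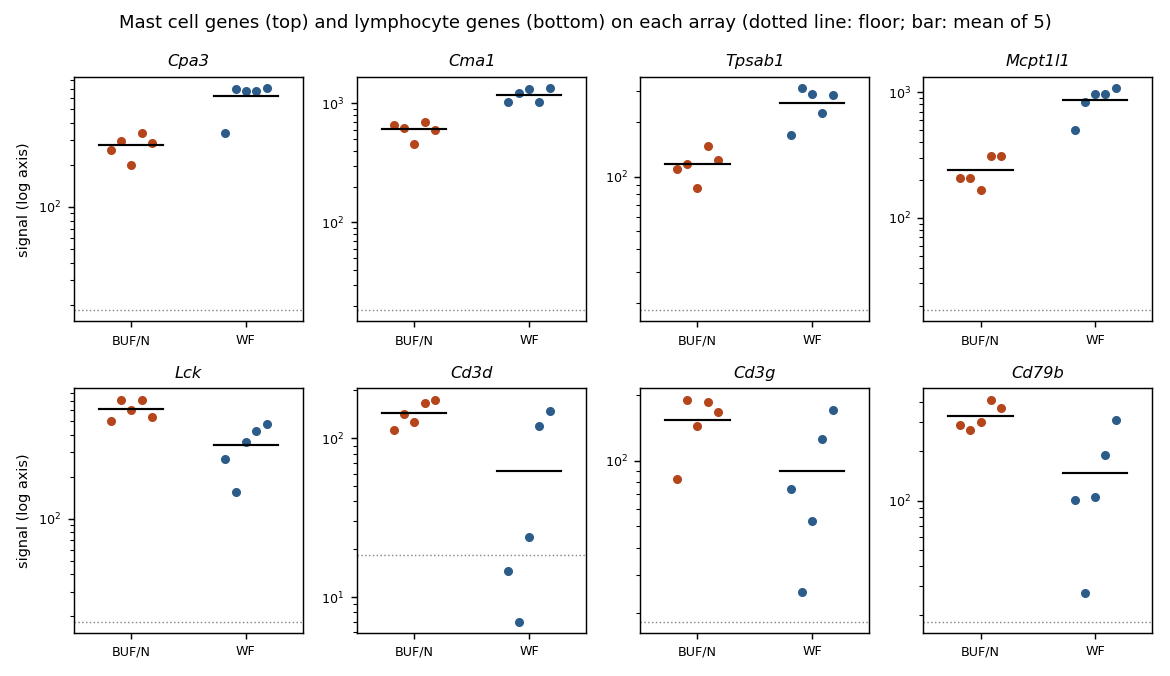
Deposited signal on each BUF/N array (left in each panel) and each WF array (right) for 4 mast cell genes in the upper row and 4 lymphocyte genes in the lower row, on a log axis with the mean of 5 as a bar and the floor of 18.3 as a dotted line. The mast cell genes are lower in BUF/N, with WF replicate 1 the lowest or near the lowest WF array, and the WF arrays spread widely for the lymphocyte genes. Mcpt1l1 is shown at its called probe set, the dimmer of 2.

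Lymphocyte genes had changes above 0 that did not pass. Of 9 T lymphocyte genes 8 had changes above 0, none was called, and the median was 0.84. Lck, the kinase of the T cell receptor, had 501.1, 716.1, 606.7, 716.4 and 537.3 in BUF/N, against 270.2, 155.3, 358.4, 425.3 and 477.1 in WF. The groups did not overlap, but the log2 change of 0.96 had a standard error of 0.36 (adjusted p = 0.23). Cd3d, a chain of the T cell receptor complex, had a change of 1.74 (adjusted p = 0.24). Cd79b, a chain of the B cell receptor, had signals of 268.2 to 412.7 in BUF/N and 27.4 to 310.2 in WF (log2 change 1.54, SE 0.53, adjusted p = 0.17). The summed signal of the 4 T cell markers found on the array of 5 listed (Cd3d, Cd3g, Cd2 and Cd5) ran from 293 to 494 in BUF/N and from 83.7 to 445.6 in WF. The part of these lymphocyte signals in the values of the class II genes was not tested.

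Myh1, a fast skeletal myosin heavy chain gene, was lower with 49, 51.7, 44.4, 43.3 and 62.2 in BUF/N, against 105.4, 128, 126.5, 165.8 and 97.9 in WF (log2 change -1.30, SE 0.27, adjusted p = 0.0034). It was the only one of 19 skeletal muscle genes to be called. 16 of them had changes above 0, and the list's median was 0.43, the opposite direction to Myh1. The summed signal of the muscle markers Acta1, Ckm, Tnni2 and Myh4 ranged from 309.9 to 3941.6 in BUF/N and from 320.5 to 4857.6 in WF, so muscle signals varied widely within each strain.

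Alb, the serum albumin gene, was lower in BUF/N at all 3 of its probe sets. At the brightest, the signals were 62.5, 69.6, 69.7, 65.2 and 198.9 in BUF/N, against 352.3, 384.3, 424.7, 353.6 and 470.5 in WF (log2 change -2.25, SE 0.34, adjusted p = 6.08e-05). BUF/N replicate 5 was the highest of its group and still below every WF array. The other 2 probe sets had changes of -3.12 and -2.25. The liver markers Ttr and Apoa1 were dim in both strains, at most 68.5 in BUF/N and 102.2 in WF, and of 12 liver-type plasma protein genes Alb alone was called, with 6 changes above 0, 6 below and a median of 0.01. Pf4, a platelet chemokine gene that lies near Alb, averaged 385 ± 109 in BUF/N and 616 ± 48.2 in WF (log2 change -0.72, SE 0.17, adjusted p = 0.016). It was the only one of 12 chemokine and interleukin genes to be called, and it did not pass without BUF/N replicate 2 (adjusted p = 0.070) or BUF/N replicate 3 (0.079).

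**Figure D4:**
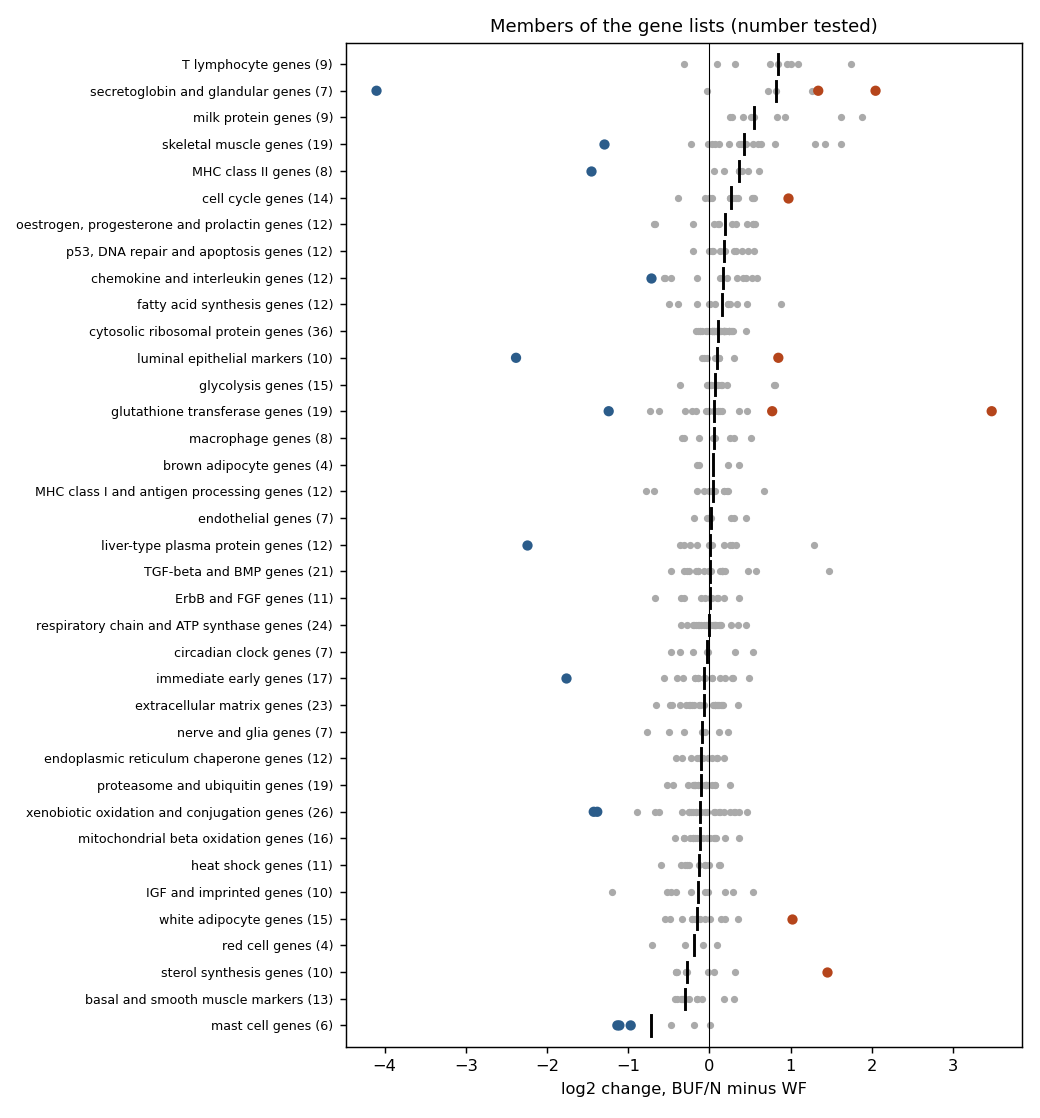
Log2 change, BUF/N minus WF, of each tested member of the gene lists with at least 4 tested genes, 1 probe set per gene, with the number tested in brackets. Grey points did not pass, red points were called higher and blue points lower, and the black bar is the median of a list. The lists run from T lymphocyte genes with the highest median (0.84) to mast cell genes with the lowest (-0.72), and most medians lie near 0.

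Across the 39 gene lists, 486 genes were tested and 21 were called, in 13 lists. Of all 3053 genes tested by 1 probe set each, 27 were called higher and 37 lower. The lists were chosen with earlier results of these data known. Cytosolic ribosomal protein genes had 28 of 36 changes above 0 and a median of 0.11 with none called, and this median was -0.01 after quantile normalization. The ribosomal gene Rps10 was nearest to the threshold, with 3375 ± 326 in BUF/N and 2486 ± 333 in WF (log2 change 0.45, adjusted p = 0.055). Rps10 passed without F1 arrays 2 and 3 and ACI arrays 2 and 5 (0.45, adjusted p = 0.022), and with array weights (0.36, adjusted p = 0.018). Proteasome and ubiquitin genes had 15 of 19 changes below 0, a median of -0.11 and none called. Inhbb, the beta B subunit of activins and inhibins, had 116 ± 37.8 in BUF/N and 53.2 ± 53.8 in WF (log2 change 1.47, adjusted p = 0.059). Without WF replicate 1, Inhbb passed with a change of 1.94 (adjusted p = 0.0012).

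Genes of mammary hormone and growth factor signalling were not called. Prlr, the prolactin receptor, had signals of 395.9, 619.5, 396.1, 592.3 and 614.5 in BUF/N, against 678.2, 1049.7, 667.1, 852 and 915 in WF. These did not overlap, yet the log2 change of -0.68 (SE 0.22) had an adjusted p of 0.12, and the other 2 probe sets had changes of -0.59 and -0.45. Prlr passed without F1 arrays 2 and 3 and ACI arrays 2 and 5 (adjusted p = 0.0094), and with array weights (0.0051). Pgr, the progesterone receptor, averaged 129 ± 42.4 in BUF/N and 90.8 ± 16.1 in WF (adjusted p = 0.74). Igf1, insulin-like growth factor, had a change of -0.47 (adjusted p = 0.13), and it passed without BUF/N replicate 5 (-0.58, adjusted p = 0.038) and without WF replicate 1 (-0.56, adjusted p = 0.042). Erbb2 and Fgfr2, growth factor receptor genes, had changes of -0.10 and -0.35 with adjusted p-values of 0.92 and 0.61. Hs6st1, a heparan sulfotransferase, averaged 558 ± 94.8 in BUF/N and 504 ± 111 in WF (adjusted p = 0.86). Esr1 and Cdkn1a were too dim to be tested, and no probe set was matched to Adipoq.

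Further genes with large changes do not fall in these groups. Spock2, a secreted proteoglycan gene, was higher with 97.2 ± 19.8 in BUF/N and 22.2 ± 14.8 in WF (log2 change 1.95, SE 0.27, adjusted p = 1.51e-05). Rcn3, a calcium-binding protein of the endoplasmic reticulum, was higher with 743 ± 139 in BUF/N and 189 ± 38.8 in WF at 1 probe set (log2 change 1.98, adjusted p = 1.30e-07) and had a change of -0.04 at its other. Prim1, the catalytic subunit of DNA primase, averaged 243 ± 78.1 in BUF/N and 70.6 ± 37.99 in WF (log2 change 1.88, adjusted p = 0.00044), and its second probe set was called with 1.28, in 4 of the 10 fits that each dropped 1 array. Tmtc3 (1.77), which encodes an endoplasmic reticulum mannosyltransferase, Grifin (1.71), a lens galectin-related gene, Vat1 (1.39), an oxidoreductase homologue of a synaptic vesicle protein, and Resp18 (1.32), an endocrine secretory protein gene, were also called higher without overlap. Resp18 did not pass in a fit of only the 10 BUF/N and WF arrays (adjusted p = 0.066).

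Among those lower, Pou3f3, a transcription factor gene of the POU family, had 18.6 ± 12.2 in BUF/N and 108 ± 42.8 in WF (log2 change -2.18, adjusted p = 0.0013), with 3 BUF/N arrays at the floor. With the floor at the 40th percentile Pou3f3 did not pass (-1.11, adjusted p = 0.083). Nptx2, a secreted pentraxin of neurons, had 57.9 ± 16.7 in BUF/N and 189 ± 76.3 in WF (log2 change -1.64) and a change of -0.19 at its other probe set. Smim7, a small membrane protein gene, had 49.9 ± 10.97 in BUF/N and 139 ± 18.02 in WF (log2 change -1.49). Slc1a3, a glutamate transporter gene, had 29.1 ± 8.76 in BUF/N and 77.2 ± 26.2 in WF (log2 change -1.39), and 1 of its other 3 probe sets was called lower as well. With the floor at the 40th percentile the call of Slc1a3 given first was lost (-0.64, adjusted p = 0.15).

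The other 4 groups of the study show where these levels stand among strains. Of the 112 called probe sets, 46 had a Cop mean nearer to BUF/N and 66 nearer to WF, and these numbers were 51 and 61 for F344, 48 and 64 for ACI and 62 and 50 for F1. Nearer to BUF/N were thus 41.1% of the called sets in Cop, beside 37.0% of all tested sets, 45.5% in F344 beside 37.6%, 42.9% in ACI beside 41.3% and 55.4% in F1 beside 47.7%. All 4 other groups were nearer to WF for 23 called probe sets and nearer to BUF/N for 17, and they divided for 72. These are 20.5%, 15.2% and 64.3% of the called probe sets, beside 22.1%, 10.9% and 67.0% of all those tested. Grifin averaged 193 in BUF/N and 61.5 in WF, but 1145 in F344 and 557 in F1. Cbr1 averaged 783 in BUF/N and 2134 in WF, with 1793 in F344 and only 222 in Cop and 288 in ACI. Gstt2 averaged 798 in BUF/N and 71.1 in WF, and the other groups lay between them at 159 to 550. The levels of the F1 hybrid and of its parents Cop and F344 are not independent of each other, and no test was made on these groups.

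**Figure D5:**
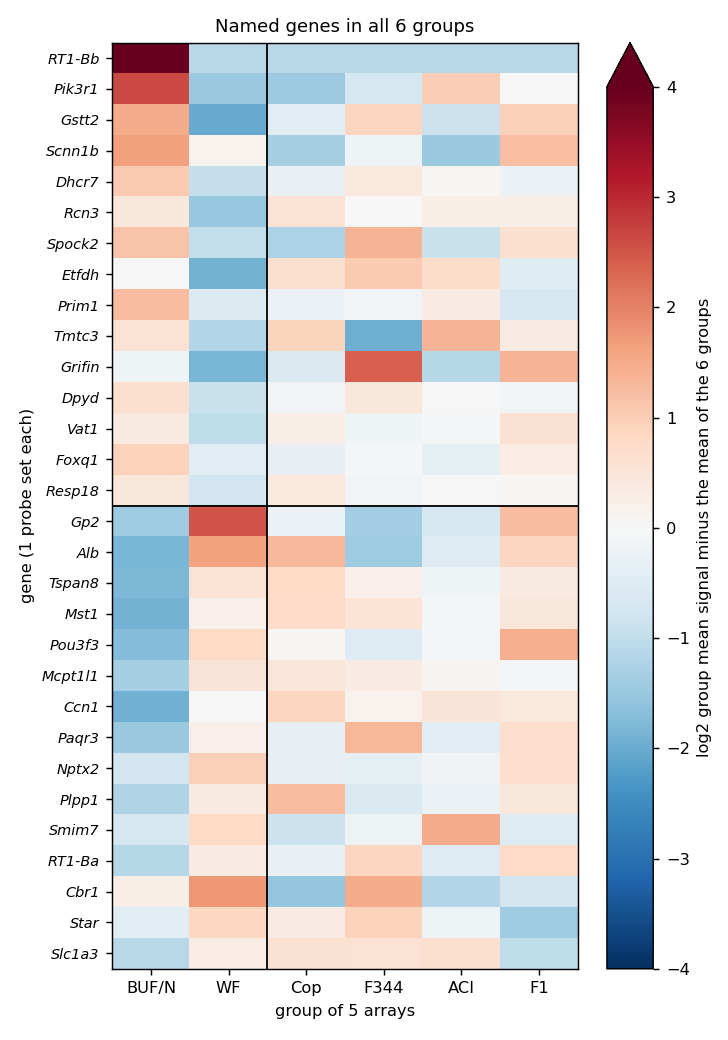
Log2 of the group mean signal, minus the mean of the 6 groups, for the 15 genes called higher in BUF/N (upper rows) and the 15 called lower (lower rows) of largest change, in BUF/N, WF, Cop, F344, ACI and F1. Red is above and blue below the mean of the gene over the groups, and shading ends at 4, which RT1-Bb in BUF/N exceeds. The RT1-Bb probe set shown is high in BUF/N alone and Gp2 is highest in WF, whereas Grifin is highest in F344.

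Some called genes lay close together on the GRCr8 assembly. Within 1 Mb, a distance chosen after the values were seen, 18 of 80 placed called genes (22.5%) had another called gene, against 13.9% of the genes that were not called. There were 9 such pairs, of which 6 had the same direction. They were Gstt2 with Gstt1, Spock2 with Psap, Ptov1 with Rcn3 and Aqp7 with Ndufb6, all higher, and Cma1 with Mcpt1l1 and Alb with Pf4, both lower. RT1-Ba with RT1-Bb, Cwc25 with Stard3 and Arpc1b with Nptx2 had opposite directions. Psap, Ptov1, Cwc25, Stard3 and Arpc1b are named here for their position alone, after their values were seen. Ndufb6 also lies outside the rule for named genes and was picked out after its values were seen. Chromosome 20, which carries the RT1 complex and the Gstt genes, held 7 called genes of 115 tested (6.09%), 6 of them higher, beside 2.63% of all placed genes. Chromosomes 17, 14 and 2 had shares near to it, with 5.33%, 5.32% and 5.21%. The called gene RT1-A was not placed and is in none of these counts. The genome build behind the array's annotation is not given in the sources used here, so these neighbours rest on the RefSeq table alone.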

How the data were processed

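The authors deposited linear signals of 8799 probe sets per array, made with Affymetrix Microarray Suite 5.0 per the labels, from biotinylated RNA of 5 µg of total RNA. The scanner files were not used here. Groups were taken from the sample titles. A floor of 18.3, the 25th percentile of the deposited values of the 30 single-sample arrays, was put under low signals before log2 was taken. Probe sets had to exceed 78.4, the median of those values, on 5 or more arrays to be tested. The 59 control probe sets and the 2 pools were left out. A fold change of a gene near the floor understates its difference.

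Group means of the 6 groups were modelled in R 4.3.3 using limma 3.58.1 (lmFit, contrasts.fit and eBayes with a trend), the contrast was BUF/N minus WF, and p-values were adjusted by Benjamini-Hochberg over the 5039 tested probe sets. The number of arrays limits the precision, and no detection calls were used. Gene symbols came from the array annotation, updated to RefSeq: 7018 probe sets had 1 symbol, 308 several and 1473 none. Gene lists use the brightest probe set per gene. Lists carry counts and medians but no test.

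Named genes are up to 15 per direction with an adjusted p under 0.05, 1 symbol and no overlap of signals, by size of change, then up to 4 called genes of each list, or the gene of smallest adjusted p, and a fixed set of mammary genes. Members and lists were chosen with earlier results of these data known. Alternatives were other floors, filters, normalizations, fits and array sets. Figures were drawn with matplotlib 3.10.9.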

Additional observations from a re-analysis of the deposited data

Results flagged for a closer look

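In 13 of 168 groups of 5 signals of the named genes, 1 array lay apart from the other 4, with a gap of more than 0.71 of the group's range. The cut-off of 0.71 gives about 1 such group in 20 for independent, normally distributed values. The signals here were not put on a log scale, and the genes were picked and share arrays. That rate therefore need not hold for them.

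WF replicate 1 accounted for 4 of them. Its signal was 4.4 for Prim1, where the other WF arrays had 76.6 to 96.9, and 335.7 for Cpa3, where they had 669.4 to 703.7. It was 147.5 for Inhbb, where they had 14.8 to 42.9, and 1896.6 for Rps10, where they had 2577 to 2688.5.

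For the milk and luminal genes, BUF/N replicate 2 had 3379 for Wap (253.2 to 787.9 on the other BUF/N arrays) and 4890.6 for Lcn2 (1744 to 2655). WF replicate 3 had 1307.8 for Wap (99.4 to 281.6 on the other WF arrays), 3201.3 for Csn2 (178.4 to 950) and 4792 for Lcn2 (1852.1 to 2112.4).

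BUF/N replicate 5 had 51.3 and 198.9 at 2 probe sets of Alb, where the other BUF/N arrays had 4.7 to 10.8 and 62.5 to 69.7. BUF/N replicate 3 had 1565 for Ccnd1, where the others had 849.4 to 1013.9. WF replicate 5 had 140.2 for Tmtc3, where the others had 83.7 to 94.2.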

How the results depend on the processing

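Of 112 calls, 44 were made in all 23 alternative fits and 64 in all 10 fits that left out 1 BUF/N or WF array. The number called was 172 (106 lower) without the F1 arrays 2 and 3 and the ACI arrays 2 and 5, which an earlier analysis had found apart from their groups, and 372 (144 higher and 228 lower) with array weights. It was 65 (29 higher and 36 lower) at an adjusted p under 0.01, and 68 (26 higher and 42 lower) beyond 2-fold. Without 1 array it ran from 75 (without WF replicate 4) to 178 (without WF replicate 1), the higher calls from 33 to 55, and the lower calls from 42 (without WF replicate 4) to 123 (without WF replicate 1), with 43 without BUF/N replicate 2. With only the 10 BUF/N and WF arrays there were 93 calls, 82 of them shared. The cause of these shifts was not tested.

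With the replicate number as a block, 106 probe sets were called (44 higher and 62 lower), 103 of them shared. Deviations of same-numbered arrays correlated at 0.03 to 0.26. For replicates 1, 4 and 5 the best of the other numbers correlated better, and for replicates 2 and 3 the same number did. The numbers were not taken as pairs in the main fit, and whether same-numbered arrays shared a batch was not tested.

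Among named genes, 5 with changes near 0 changed sign when 1 array was left out, and none of them passed in any of these fits. Their log2 changes ran from -0.126 (without BUF/N replicate 2) to 0.360 for Lcn2, from -0.0104 (without BUF/N replicate 3) to 0.193 for Krt8, and from -0.126 to 0.0561 (without WF replicate 3) for Krt18. They ran from -0.210 to 0.0221 (without BUF/N replicate 2) for Erbb2 and from -0.223 to 0.0935 (without BUF/N replicate 3) for Ephx2, which also turned to 0.10 with array weights. Over all named genes and alternatives, 1832 values kept their direction and side of the threshold, 41 lost the call and 28 gained it.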

Other observations

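Further called genes fell outside the rule for named genes and were picked out after their values were seen. Lta4h, the enzyme that makes leukotriene B4, was lower with 259.1, 246.6, 234.7, 361.2 and 353.4 in BUF/N, against 784.6, 696.4, 708, 863.6 and 591.9 in WF (log2 change -1.34, limma adjusted p = 0.00018), and its other probe set had a change of 0.12. Efemp1, a fibulin of the extracellular matrix, was lower without overlap (log2 change -1.35, adjusted p = 0.00011), as was Mmrn1, a multimerin of platelets and endothelium (-1.29, adjusted p = 7.97e-05). Psmb4, a proteasome subunit gene, was lower at 1 probe set (-1.07, adjusted p = 8.26e-06), while its other 2 had changes of 0.26 and 0.09. Cpa1, a carboxypeptidase known from the pancreas, was higher (1.07, adjusted p = 0.0060), although the strains overlapped. Lpl, the lipoprotein lipase of fat cells, was called higher at 1 probe set (0.74, adjusted p = 0.037), in 12 of 23 alternative fits, and had changes of 0.07 and 0.20 at its other 2.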
